A study of Mus musculus with 16 samples.

Results

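Ageing of the heart without Armh4 was followed in 8 hearts of mice carrying a systemic Armh4 knockout, 4 from animals of 25 months and 4 from animals of 8 weeks. They were chosen by their genotype and age labels alone, out of 16 sequenced hearts in all, of which the other 8 came from wild-type mice of the same ages, 4 at each age. Per the study's design text, mice were kept on normal food under a 12 h light cycle, each group held at least 6 animals and 4 hearts from each were sequenced as independent biological replicates. The wild-type mice were C57BL/6J and the strain of the knockouts is not stated separately. The knockout is systemic, so Armh4 is lost from every tissue and not from the heart alone. The sources used here do not give sex, hour of collection or processing day. Knockout hearts are called by the names in their labels, KO_Young-27, KO_Young-31, KO_Young-38 and KO_Young-53 for the young and KO_Aged-114, KO_Aged-115, KO_Aged-122 and KO_Aged-125 for the aged, and values below follow that order. Values for wild-type hearts follow the order 29, 34, 39 and 42 for the young and 1, 4, 5 and 12 for the aged. No number is shared between groups, so no heart is paired with another.

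Each value is in CPM, the usual depth-scaled count, which for a single gene is its share of a library's gene counts after scaling for library composition. Summed levels of a list are scaled to library size alone, so they are on another scale. The composition factors left out of them were 0.943 to 1.004 in young and 1.004 to 1.055 in aged knockout hearts. A log2 change of 1 is a doubling from 8 weeks to 25 months and is given with its standard error. That error compares 4 with 4 hearts and uses a spread estimated jointly over the 4 groups of genotype and age. A gene is said to have risen or fallen when it passed an adjusted p of 0.05 in edgeR's quasi-likelihood test, adjusted by Benjamini and Hochberg's method over all 13373 genes tested of 18346 listed. The 8 knockout libraries held 11456503 to 12885817 gene counts. Along the first principal component of these 8 libraries, which held 41.9% of their variance, all aged hearts lay apart from all young ones. Armh4 itself, the check of the labels, had 5, 6, 1 and 6 counts in the young and 14, 11, 22 and 11 in the aged knockout hearts, against 158 to 254 in the 8 wild-type hearts, so every library matched its genotype label. The few Armh4 counts in the knockout hearts were higher in all 4 aged than in all 4 young hearts (log2 change 1.59 ± 0.36, adjusted p = 0.0094). Its wild-type change was 0.26 ± 0.15, adjusted p = 0.24.

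Armh4 encodes a membrane protein with an armadillo-like helical region. The ageing mammalian heart is a mixture in which cardiomyocytes supply most of the RNA, while endothelial cells, fibroblasts, mural cells and resident macrophages supply the rest. Ageing of the mouse heart is known for a larger and more inflamed myeloid compartment, remodelled matrix and altered use of fuels. In RNA from heart tissue, fewer cells of a type and less RNA per cell cannot be told apart, which holds for every gene below.

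With age, 1020 genes changed in knockout hearts (7.63% of those tested), of which 672 rose (5.03%) and 348 fell (2.60%). These shares stand beside every list count given below for knockout hearts. Rises were larger than falls: the median log2 change was 0.83 among genes that rose and -0.44 among those that fell, and 248 of the 274 genes that changed more than 2-fold had risen. Over all tested genes the median was -0.0087. All 4 aged hearts lay outside the range of the 4 young ones for 2097 genes (15.7%), among them 915 of the 1020 that changed. The number of genes rests on single hearts: it was 634 without heart KO_Young-53, 674 without heart KO_Aged-115 and at most 863 without any other heart left out singly. With scaling by library size alone, 922 of 1108 changed genes were higher in aged hearts (83.2%), against 65.9% with the scaling used here.

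**Figure D1:**
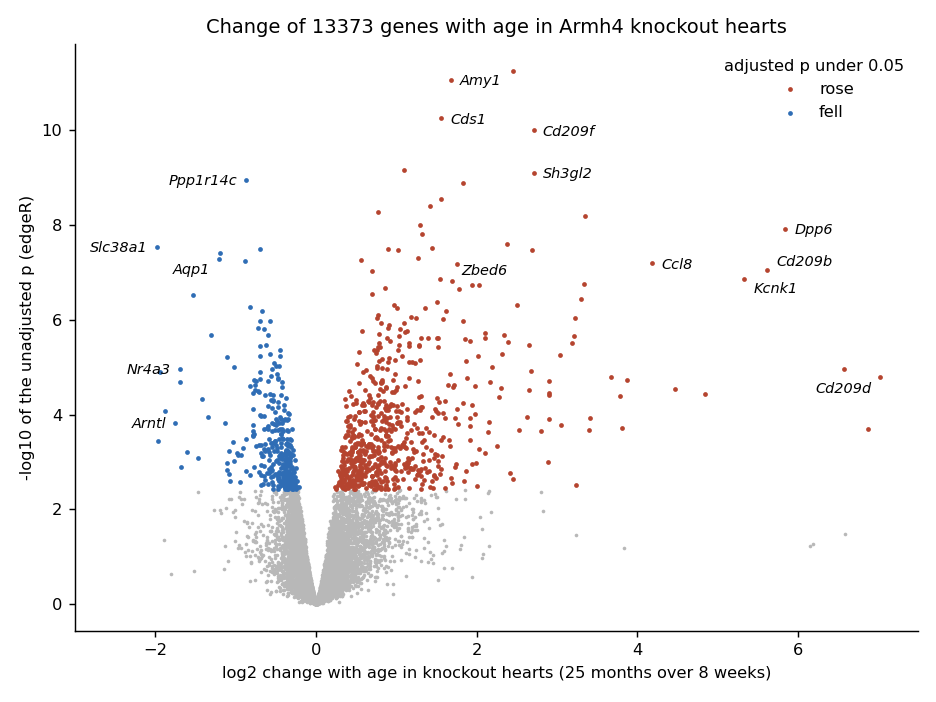
Change of every tested gene from 8 weeks to 25 months in Armh4 knockout hearts (log2, horizontal axis) against the evidence for it (minus log10 of the unadjusted p, vertical axis), 4 aged against 4 young hearts; coloured points passed an adjusted p of 0.05. The 672 genes that rose extend further from 0 than the 348 that fell.

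The largest rises belonged to genes that young knockout hearts scarcely transcribed. Cd209d and Cd209b encode C-type lectins of the SIGN family, which bind sugars on microbes and are carried by tissue macrophages. Cd209d had 0 counts in the 4 young hearts together and 66 in the 4 aged ones, 22-fold above a floor of 3 counts over the group and at least 17.4-fold higher by the lower 95% counting limit. Cd209b had 1 count in the young and 76 in the aged hearts, a ratio of 76.0 (95% counting interval 13.2 to 3041). Cyp4f15, a cytochrome P450 of eicosanoid metabolism, went from 0 to 59 counts, 19.7-fold above the same floor and at least 15.5-fold higher by the lower limit, and did not pass in a fit of the knockout libraries alone (adjusted p = 0.086). Dpp6, an accessory subunit of Kv4 potassium channels, went from 1 to 89 counts, a ratio of 89.0 (interval 15.6 to 3555). Intervals and floors cover counting error only. In each of these genes every aged heart lay above every young one, which was a condition for naming the largest changes.

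Other genes near 0 in young hearts rose as well. Kcnk1, a background potassium channel, stood at 0.504, 0.165, 0 and 0.0834 CPM in the young and 3.44, 4.31, 11.3 and 12.6 CPM in the aged hearts (log2 change 5.33 ± 0.61, adjusted p = 5.6e-05). Cyp2b10, a xenobiotic-metabolising P450 best known from liver, stood at 0.336, 0.329, 0.330 and 0.0834 CPM in the young and 3.59, 5.80, 6.17 and 16.7 CPM in the aged hearts (log2 change 4.85 ± 0.81, adjusted p = 0.0025). Both were near 0 in each young heart and present in each aged one. Amtn, known from tooth enamel (3.30 ± 0.44), the kallikrein Klk1b26 (3.67 ± 0.62), the membrane protein Prom2 (3.22 ± 0.46) and the protease inhibitor Serpina1b (3.05 ± 0.66) rose from under 1 CPM in each young heart. The rises with the smallest p were those of Amy1, an amylase gene (log2 change 1.68 ± 0.12, adjusted p = 5.6e-08), and Cds1, a synthase of CDP-diacylglycerol (log2 change 1.56 ± 0.12, adjusted p = 2.4e-07). Sh3gl2 (2.72 ± 0.25), an endophilin of endocytosis, Prkcq (1.83 ± 0.17), a protein kinase C, Ric3 (1.56 ± 0.15), a chaperone of acetylcholine receptors, and Skap2 (1.10 ± 0.10), an adaptor of myeloid signalling, also rose. Genes named by smallest p, like those named by largest change, were taken only where the ages did not overlap.

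Among the genes that fell, the amino acid transporter Slc38a1 was at 18.7, 10.6, 20.2 and 16.6 CPM in the young and 5.58, 4.47, 4.26 and 2.35 CPM in the aged hearts (log2 change -1.98 ± 0.22, adjusted p = 2.1e-05), below the young range in each aged heart. Ddc, the aromatic amino acid decarboxylase, fell by a like log2 amount (-1.97 ± 0.45), as did Map3k7cl (-1.94 ± 0.34) and Lrrn1 (-1.88 ± 0.38). Ppp1r14c, an inhibitor of protein phosphatase 1, had the smallest p of all falls and was at 324, 301, 311 and 315 CPM in the young and 179, 175, 161 and 168 CPM in the aged hearts (log2 change -0.87 ± 0.082, adjusted p = 2.1e-06). Its counts are fractional in part, a mark of reads divided among similar sequences. Itgb6 (-1.19 ± 0.14), an integrin subunit, the calmodulin-dependent phosphodiesterase Pde1c (-0.88 ± 0.11), Ramp1 (-1.31 ± 0.20), a subunit of the receptor for the vasodilator CGRP, and the scaffold Nedd9 (-0.68 ± 0.095) fell as well. Hrk, a pro-apoptotic BH3-only gene, was at 1.43, 1.40, 1.98 and 1.08 CPM in the young and 0.459, 0.166, 0.457 and 0.728 CPM in the aged hearts (log2 change -1.68 ± 0.45, adjusted p = 0.024). Hrk lost its call without heart KO_Young-38, KO_Aged-114, KO_Aged-115 or KO_Aged-122 (adjusted p up to 0.086).

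Macrophage genes rose together. Of the macrophage list, 19 of 26 tested members rose, 0 fell and the median log2 change was 0.81, and the summed level of the list was 601 to 668 CPM in the young and 1028 to 1135 CPM in the aged hearts. Cd209f, the SIGN lectin with the smallest p of the list, was at 0.841, 0.659, 0.743 and 0.584 CPM in the young and 4.74, 4.64, 4.42 and 4.93 CPM in the aged hearts (log2 change 2.71 ± 0.22, adjusted p = 3.3e-07). Its counts and those of Cd209g (log2 change 2.90 ± 0.52, adjusted p = 0.0016) are partly fractional, so near-identical copies may share their reads. Vsig4, a complement receptor of resident macrophages outside the list, was at 0.672, 0.329, 0.413 and 0.250 CPM in the young and 1.53, 4.06, 5.86 and 4.04 CPM in the aged hearts (log2 change 3.19 ± 0.48, adjusted p = 0.00047). Lyz2, lysozyme of myeloid cells, was at 91.5, 102, 119 and 120.2 CPM in the young and 220.2, 201, 268 and 242 CPM in the aged hearts (log2 change 1.10 ± 0.16, adjusted p = 0.00035). Mrc1, the mannose receptor, was at 33.5, 29.8, 37.5 and 28.8 CPM in the young and 56.4, 57.1, 59.0 and 54.7 CPM in the aged hearts (log2 change 0.81 ± 0.12, adjusted p = 0.00026). Each of these genes separated the ages with no overlap, and heart KO_Aged-122 was the highest of all for Vsig4, Lyz2 and Mrc1. F13a1 (1.28 ± 0.19), a coagulation transglutaminase of macrophages, the lysosomal Cd68 (0.99 ± 0.16), the scavenger receptor Msr1 (1.32 ± 0.26), Adgre1 (0.81 ± 0.16), which encodes F4/80, and the growth factor receptor Csf1r (0.53 ± 0.11) rose too. Lyve1, shared by resident macrophages and lymphatic endothelium, rose (log2 change 0.84 ± 0.21, adjusted p = 0.021), whereas no other gene of the lymphatic list did: there 1 of 10 tested members rose, 0 fell and the median log2 change was -0.11. Lyve1 lost its call without any 1 heart except KO_Young-38, KO_Aged-114 and KO_Aged-115 (adjusted p up to 0.066).

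Markers of other leucocytes moved less uniformly, and their part in the macrophage result was not tested. Of the monocyte and dendritic list, 3 of 11 tested members rose, 0 fell and the median log2 change was 1.201. Ccr2, the receptor that brings monocytes into tissue, was at 5.30, 4.20, 2.56 and 2.50 CPM in the young and 11.5, 13.4, 13.6 and 9.78 CPM in the aged hearts (log2 change 1.73 ± 0.34, adjusted p = 0.0051), and its aged values lay above the young ones. Itgam, an integrin of myeloid cells, was at 5.97, 3.38, 6.60 and 3.50 CPM in the young and 10.4, 9.69, 12.5 and 14.2 CPM in the aged hearts (log2 change 1.26 ± 0.22, adjusted p = 0.0016). Of the neutrophil list 2 of 6 tested members rose, 0 fell and the median log2 change was 1.66 (0 to 3 risers with 1 heart left out), with a summed level of 4.81 to 8.39 CPM in the young and 12.1 to 22.7 CPM in the aged hearts, and the defining markers Ly6g and Elane were at 0 counts in all 8 knockout hearts. S100a9, a calcium-binding protein of neutrophils and monocytes, was at 0.504, 0.988, 0.825 and 0.334 CPM in the young and 1.45, 1.91, 1.07 and 5.42 CPM in the aged hearts (log2 change 1.86 ± 0.50, adjusted p = 0.027). In the T and natural killer cell list 0 genes passed edgeR's test (6 tested, 1 up and 0 down at an unadjusted p under 0.05, 0 up and 0 down by DESeq2, median 0.13), and in the B and plasma cell list 0 passed (3 tested, 0 up and 0 down at an unadjusted p under 0.05, 0 up and 0 down by DESeq2, median 0.31). Of the platelet list, 1 of 4 tested members rose, 0 fell and the median log2 change was 0.25, the riser being Pf4 (0.71 ± 0.14), which macrophages also make. Haemoglobin and other red cell genes did not pass (10 tested, 2 up and 0 down at an unadjusted p under 0.05, 0 up and 0 down by DESeq2, median 0.44), and heart KO_Aged-125 had the highest level of the haemoglobin genes. S100a9 lost its call without heart KO_Young-27, KO_Young-38, KO_Young-53 or KO_Aged-125 (adjusted p up to 0.090).

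Complement genes of the classical pathway rose beside the macrophage genes. Complement is a set of plasma and tissue proteases that tags microbes and debris. Of its list, 12 of 22 tested members rose, 0 fell and the median log2 change was 0.72. C4b, which carries the tag laid down by the classical pathway, was at 33.3, 10.9, 25.3 and 15.3 CPM in the young and 93.1, 78.5, 100.1 and 109 CPM in the aged hearts (log2 change 2.17 ± 0.34, adjusted p = 0.0017). C3, the central component, was at 187, 141, 185 and 145 CPM in the young and 362, 335, 363 and 453 CPM in the aged hearts (log2 change 1.199 ± 0.19, adjusted p = 0.00086). Every aged heart exceeded every young one for both, and young heart KO_Young-31 was lowest for both. Genes of the first component rose, namely C1qa (0.71), C1qb (0.86) and C1qc (0.83), which macrophages make, and the proteases C1ra (0.66) and C1s1 (0.68), which fibroblasts make. The anaphylatoxin receptors C5ar1 (0.89) and C3ar1 (1.13), properdin, encoded by Cfp (0.88), the terminal component C6 (2.53) and the protective Cd59a (0.32) rose as well. Cd59a lost its call without heart KO_Young-27 or KO_Aged-125 (adjusted p up to 0.053). Results with 1 heart left out or under other settings are not given here for C3 and C6.

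Of the chemokine and inflammation list, 9 of 33 tested members rose, 0 fell and the median log2 change was 0.74. Ccl8, a chemokine that draws monocytes and T cells, was at 0.841, 0.165, 0.413 and 0.417 CPM in the young and 9.86, 6.71, 7.08 and 10.2 CPM in the aged hearts (log2 change 4.18 ± 0.45, adjusted p = 3.1e-05). Lgals3, which encodes galectin-3, was at 3.03, 2.55, 2.97 and 2.001 CPM in the young and 8.95, 8.61, 10.1 and 9.95 CPM in the aged hearts (log2 change 1.83 ± 0.34, adjusted p = 0.0033). Both were low in all young and raised in all aged hearts. Ccl11, the eosinophil chemokine eotaxin, was at 4.46, 5.35, 4.04 and 3.17 CPM in the young and 4.89, 12.4, 9.44 and 13.5 CPM in the aged hearts (log2 change 1.24 ± 0.25, adjusted p = 0.0043), with aged heart KO_Aged-114 inside the young range. The chemokines Ccl6 (1.52 ± 0.27), Ccl9 (1.31 ± 0.33), Ccl12 (1.52 ± 0.39) and Cxcl16 (0.55 ± 0.14) and the adhesion molecules Icam1 (0.76 ± 0.17) and Vcam1 (0.58 ± 0.15), which hold leucocytes to vessel walls, completed the risers. Ccl9 lost its call without any 1 heart except KO_Aged-114 (adjusted p up to 0.077), Ccl12 without any 1 heart except KO_Young-27, KO_Aged-115 and KO_Aged-125 (adjusted p up to 0.069) and Cxcl16 without heart KO_Young-27 (adjusted p = 0.054). Vcam1 lost its call without heart KO_Young-31, KO_Young-38 or KO_Young-53 (adjusted p up to 0.069).

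Some lysosomal and innate cell death genes also rose. Of the lysosome list 8 of 39 tested members rose, 0 fell and the median log2 change was 0.16 (3 to 6 risers with 1 heart left out), led by Laptm5 (0.76 ± 0.12), a lysosomal membrane protein of leucocytes, with a smaller rise of Grn (0.36 ± 0.07), which encodes progranulin. Of the cell death list 5 of 33 tested members rose, 0 fell and the median log2 change was 0.17 (3 to 6 risers with 1 heart left out). The risers were Naip5 (1.02 ± 0.16) and Naip2 (0.84 ± 0.18), sensors of bacterial proteins, the DNA sensor Aim2 (0.96 ± 0.23) and the inflammatory caspases Casp12 (0.96 ± 0.19) and Casp4 (0.93 ± 0.25). Gpnmb, a glycoprotein of lipid-laden phagocytes kept in the senescence list, was at 2.44, 2.55, 2.06 and 1.33 CPM in the young and 9.25, 5.71, 9.29 and 5.58 CPM in the aged hearts (log2 change 1.83 ± 0.26, adjusted p = 0.00024). Of that list 1 of 28 tested members rose, 1 fell and the median log2 change was 0.061, and Igfbp3, an insulin-like growth factor binding protein, fell (-0.65 ± 0.13). The cell cycle inhibitor Cdkn1a was at 17.7, 11.2, 29.9 and 17.2 CPM in the young and 19.4, 21.0, 20.3 and 22.2 CPM in the aged hearts and did not pass (log2 change 0.13 ± 0.28, adjusted p = 0.85). Of the cell cycle list 5 of 36 tested members rose, 0 fell and the median log2 change was 0.42 (1 to 6 risers with 1 heart left out). Mki67, a marker of dividing cells, was at 3.28, 3.70, 2.89 and 3.002 CPM in the young and 11.9, 8.53, 5.33 and 5.98 CPM in the aged hearts (log2 change 1.30 ± 0.22, adjusted p = 0.00082). The DNA topoisomerase Top2a (1.11 ± 0.30) and the replication factor Cdc6 (1.30 ± 0.36) rose with it. Aim2 lost its call without heart KO_Young-53 (adjusted p = 0.056), Casp4 without heart KO_Young-27, KO_Young-38, KO_Young-53 or KO_Aged-115 (adjusted p up to 0.11) and Top2a without any 1 heart except KO_Young-27, KO_Aged-122 and KO_Aged-125 (adjusted p up to 0.10). Cdc6 lost its call without any 1 heart except KO_Young-27, KO_Aged-115 and KO_Aged-122 (adjusted p up to 0.092).

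**Figure D2:**
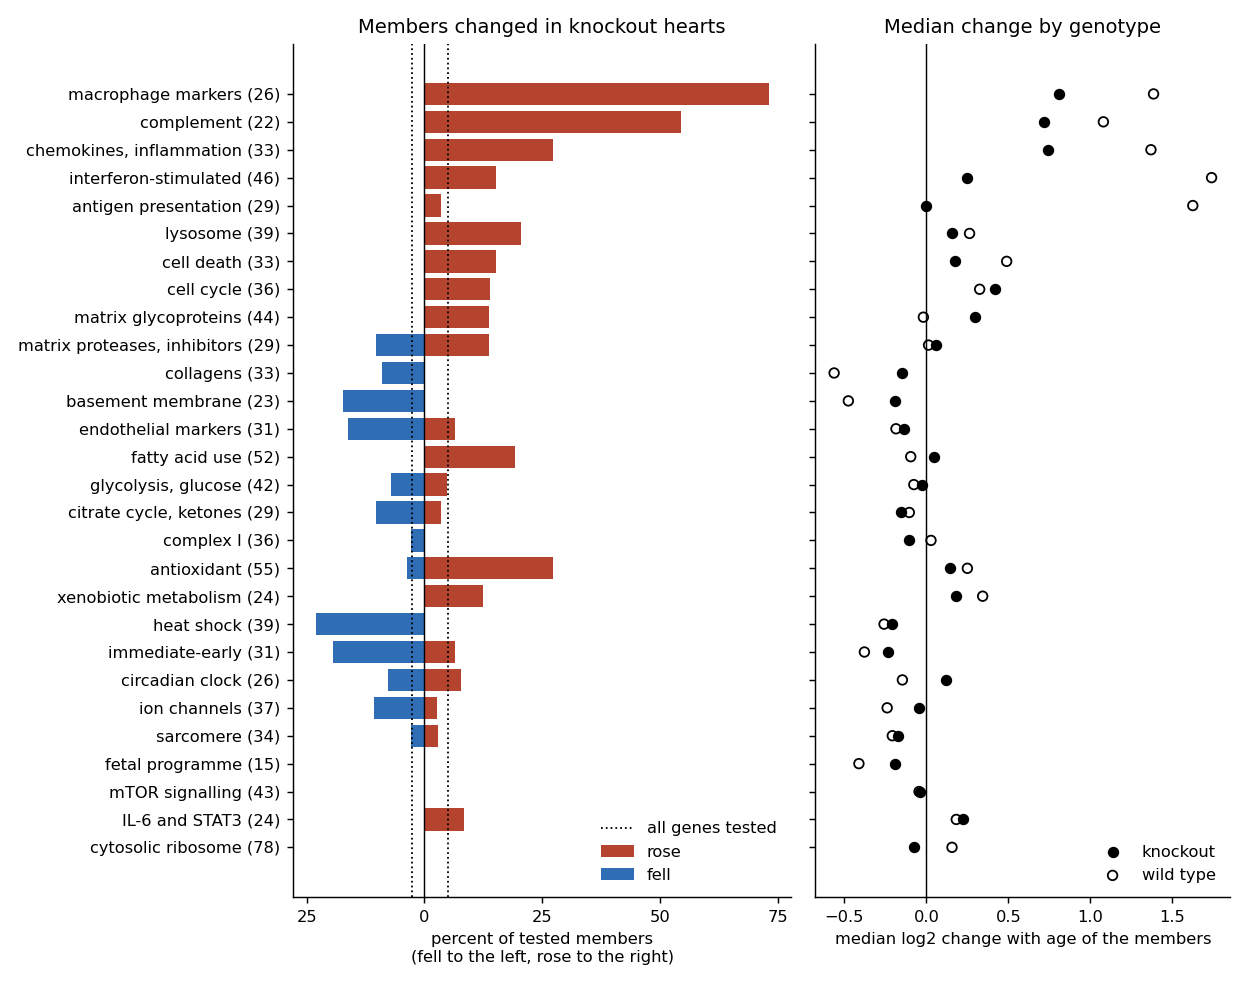
Change from 8 weeks to 25 months of selected gene lists, each with its number of tested members in brackets. Left, percent of tested members that rose (to the right) and fell (to the left) in knockout hearts. Dotted lines mark the shares over all 13373 tested genes. Right, median log2 change of the members in knockout hearts (filled points) and in wild-type hearts (open points). Among the lists shown, macrophage, chemokine and complement have the highest medians in knockout hearts. The interferon and antigen presentation lists show the widest gaps between the genotypes.

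Fewer genes of the interferon response rose in knockout than in wild-type hearts. Interferons switch on a common set of antiviral genes through an element in their promoters, the interferon-stimulated response element or ISRE, and interferon gamma also raises the guanylate-binding proteins and the class I molecules that display peptides to T cells. Of the interferon list 7 of 46 tested members rose, 0 fell and the median log2 change was 0.25 (1 to 8 risers with 1 heart left out) in knockout hearts, while in wild-type hearts 45 rose and 0 fell, median 1.74. Over all genes 11.8% rose and 9.93% fell in wild-type hearts. Of the antigen presentation list 1 of 29 tested members rose, 0 fell and the median log2 change was -0.00086 in knockout hearts, whereas 26 rose and 0 fell, median 1.62, in wild-type hearts. All 4 aged knockout hearts exceeded all young ones for 15 of the 46 interferon genes, against 15.7% of all genes in either direction. The difference between the genotypes' ageing changes passed for 14 of the 46 and for 7 of the 29, all lower in knockouts, where it passed for 0.464% of all genes. More markers of other blood cells also passed in wild-type than in knockout hearts. In wild type, 4 of the T and natural killer cell list rose and 0 fell, median 1.36. Of the red cell list 8 rose and 0 fell, median 1.41. In knockouts 0 genes of either list passed by edgeR or DESeq2. Also in wild-type hearts, of 11 monocyte and dendritic genes 9 rose and 0 fell, median 1.73, of 4 platelet genes 3 rose and 0 fell, median 1.54, and of 26 macrophage genes 22 rose and 0 fell, median 1.38, against 3, 1 and 19 risers and medians of 1.201, 0.25 and 0.81 in knockouts. For each of these blood cell lists, however, the difference between the genotypes' ageing changes passed for 0 members. The part of these cells in the interferon result was not tested.

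Promoter sequences of 3 of these genes are shown because they hold the letters of that element. They are RefSeq sequences on build GRCm38.p6, which is not the build of the deposited values, GRCm39, and each is written 5′ to 3′ in the gene's own direction with the match in capitals. The motif searched was GAAA, then 2 bases of any kind, then GAAA, on both strands, from 250 bases before to 50 bases after the start. Gbp3 at chr3:142559944-142560069 on the plus strand holds it 2 times in overlap, read on the opposite strand, while the other listed Gbp3 promoter window does not hold it. B2m, at chr2:122147493-122147612 on the plus strand, and Oas3, at chr5:120777670-120777789 on the minus strand, hold it once each.
Gbp3: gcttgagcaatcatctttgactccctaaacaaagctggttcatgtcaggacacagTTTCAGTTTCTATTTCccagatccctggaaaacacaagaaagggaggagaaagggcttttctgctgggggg
B2m: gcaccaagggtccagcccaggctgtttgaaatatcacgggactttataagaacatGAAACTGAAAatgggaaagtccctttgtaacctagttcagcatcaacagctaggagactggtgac
Oas3: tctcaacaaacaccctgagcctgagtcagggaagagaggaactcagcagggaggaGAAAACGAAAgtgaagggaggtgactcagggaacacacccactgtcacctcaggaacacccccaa

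The motif occurred in 3.90% of the 10631 tested genes with a promoter in the table (3.199% of 13628 promoters). It occurred in 61.8% of the 34 matched genes of the interferon list and in 26.1% of the 23 matched antigen presentation genes. Among the 34 matched genes whose ageing change was lower in knockouts, 38.2% held it, and among the 524 matched genes that rose in knockout hearts 5.15% did. A match describes the letters in this window and shows no binding.

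Guanylate-binding proteins are GTPases that attack membranes around intracellular microbes. Gbp3 was at 25.1, 26.0, 21.0 and 21.4 CPM in young and 25.2, 25.1, 17.4 and 31.1 CPM in aged knockout hearts (log2 change 0.079 ± 0.21, adjusted p = 0.87). It was at 20.4, 15.04, 13.2 and 21.2 CPM in young and 86.9, 81.6, 103 and 52.5 CPM in aged wild-type hearts (log2 change 2.21 ± 0.21, adjusted p = 2.8e-06). The knockout ages overlapped whereas the wild-type ages did not, with aged wild-type heart 12 the lowest of its group, and the difference between the changes was -2.13 ± 0.29, adjusted p = 0.0027. Gbp2, Gbp4, Gbp5, Gbp7 and Gbp9 differed in the same direction, with knockout log2 changes of 0.19, 0.025, 0.30, 0.14 and -0.0035 against 1.89, 2.68, 2.15, 2.02 and 1.27 in wild type. The GTPases Tgtp1 (0.10 against 3.08) and Tgtp2 (-0.31 against 3.14), near-identical neighbours whose counts are fractional in all 16 libraries, Ifi47 (0.41 against 2.40), the antiviral Rsad2 (-0.15 against 0.99) and Ifit2 (0.45 against 1.35) also differed between genotypes. So did the transcription factor Irf1 (0.046 against 1.14), Irf9, the DNA-binding partner of the STATs (-0.026 against 0.90), and the RNA sensor Ifih1 (0.023 against 0.94). Tgtp1 lost the difference between genotypes without 12 of the 16 hearts taken singly (adjusted p up to 0.12), Tgtp2 without 10 of the 16 hearts taken singly (adjusted p up to 0.091) and Ifi47 without 5 of the 16 hearts taken singly (adjusted p up to 0.090). Ifit2 lost the difference between genotypes without 8 of the 16 hearts taken singly (adjusted p up to 0.092), Irf9 without 14 of the 16 hearts taken singly (adjusted p up to 0.12) and Ifih1 without 11 of the 16 hearts taken singly (adjusted p up to 0.11).

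B2m, the light chain of all class I molecules, was at 273, 295, 213 and 264 CPM in young and 327, 315, 218 and 324 CPM in aged knockout hearts (log2 change 0.18 ± 0.21, adjusted p = 0.69). It was at 244, 205, 186 and 251 CPM in young and 758, 939, 937 and 406 CPM in aged wild-type hearts (log2 change 1.78 ± 0.22, adjusted p = 3.8e-05). Wild-type heart 12 was again the lowest of the aged, and the difference between genotypes was -1.60 ± 0.30, adjusted p = 0.034. The class I heavy chain H2-D1 changed by 0.26 ± 0.19 in knockouts and 1.54 in wild type (difference -1.28 ± 0.27, adjusted p = 0.048). H2-Q4, H2-Q6, H2-Q7, H2-T23 and the class II chaperone gene H2-DMb1 differed too, with knockout changes from -0.20 to 0.28 and wild-type changes from 1.503 to 2.39. Class I heavy chain genes are near copies of each other, so reads may be divided among them. The 1 antigen presentation gene that rose in knockouts was Ctss, the cathepsin that processes class II molecules and is rich in macrophages (log2 change 0.81 ± 0.23, adjusted p = 0.039). Ctss lost its call without any 1 heart (adjusted p up to 0.10). B2m lost the difference between genotypes without 12 of the 16 hearts taken singly (adjusted p up to 0.091), H2-D1 without 14 of the 16 hearts taken singly (adjusted p up to 0.12) and H2-Q4 without 12 of the 16 hearts taken singly (adjusted p up to 0.10). H2-Q6 lost the difference between genotypes without 9 of the 16 hearts taken singly (adjusted p up to 0.090), H2-Q7 without 12 of the 16 hearts taken singly (adjusted p up to 0.097) and H2-T23 without 13 of the 16 hearts taken singly (adjusted p up to 0.13). H2-DMb1 lost the difference between genotypes without 15 of the 16 hearts taken singly (adjusted p up to 0.11).

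A few interferon genes did rise in knockout hearts, and these were antiviral rather than guanylate-binding members. Oas3, an RNA-sensing synthetase whose promoter is shown above, was at 0.0841, 0.0823, 0.495 and 0.0834 CPM in the young and 2.45, 0.745, 0.761 and 1.86 CPM in the aged hearts (log2 change 2.90 ± 0.55, adjusted p = 0.0024), with no overlap. Its wild-type change was 3.43, and the difference did not pass (adjusted p = 0.87). Its counts are fractional in 7 libraries. The other risers were the helicase-like Dhx58 (0.85 ± 0.20), Oas2 (0.55 ± 0.14), Oasl1 (0.98 ± 0.26), Oasl2 (0.60 ± 0.17), Ifit2 (0.45 ± 0.13) and Irf7 (0.98 ± 0.27), the factor that amplifies the response. Dhx58 lost its call without heart KO_Aged-114 (adjusted p = 0.052), Oas2 without any 1 heart except KO_Young-38, KO_Young-53 and KO_Aged-122 (adjusted p up to 0.079) and Oasl1 without heart KO_Young-27, KO_Young-31, KO_Aged-114 or KO_Aged-125 (adjusted p up to 0.070). Oasl2 lost its call without any 1 heart except KO_Young-38 and KO_Aged-122 (adjusted p up to 0.11), Ifit2 without any 1 heart except KO_Aged-122 (adjusted p up to 0.13) and Irf7 without any 1 heart except KO_Aged-122 (adjusted p up to 0.11).

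**Figure D3:**
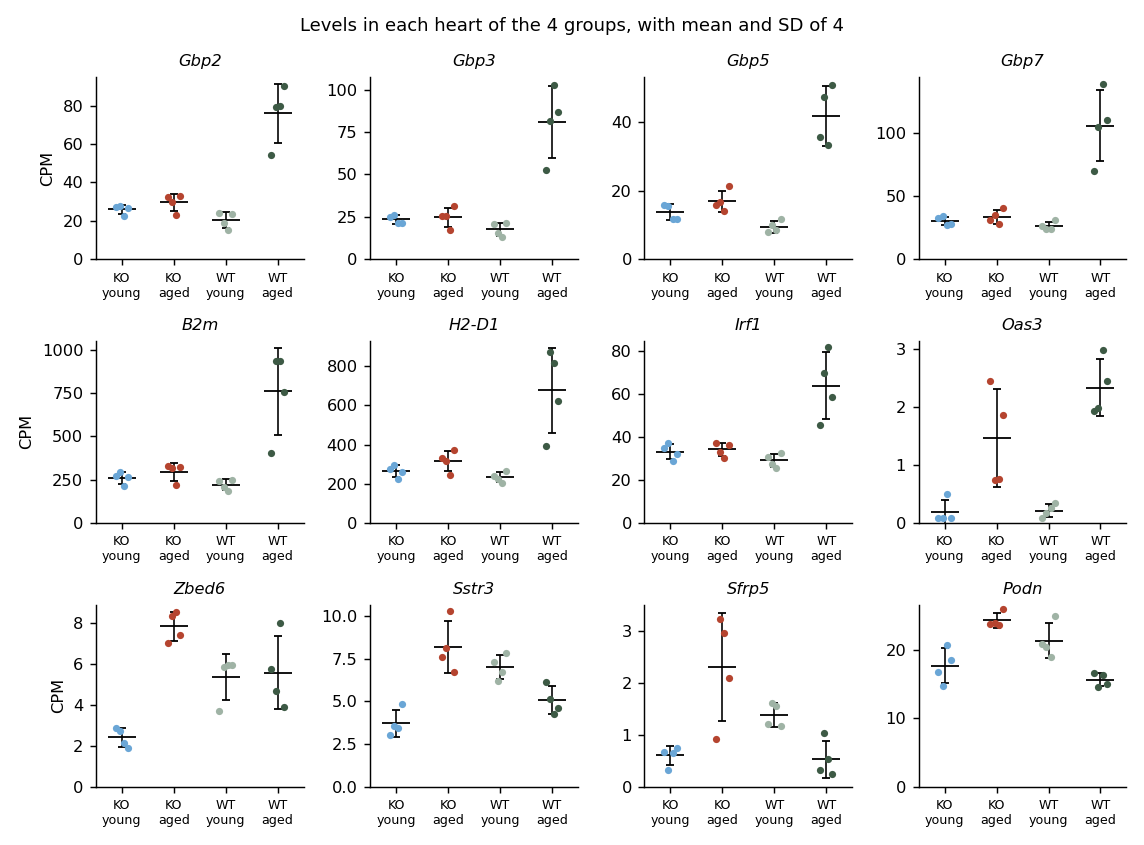
CPM of 12 genes in each of the 16 hearts, by genotype and age; each point is 1 heart, the short horizontal line is the mean of 4 and the whiskers are 1 SD. Gbp2, Gbp3, Gbp5, Gbp7, B2m, H2-D1 and Irf1 are higher in aged than in young wild-type hearts with knockout ages close together, while Oas3 is higher at 25 months in both genotypes and Zbed6, Sstr3, Sfrp5 and Podn are higher in aged than young knockout hearts.

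Some genes of the basement membrane fell and none rose, where 5.03% of all genes rose and 2.60% fell. Basement membranes are sheets of type IV collagen and laminin beneath endothelium and around each cardiomyocyte. Of the basement membrane list 0 of 23 tested members rose, 4 fell and the median log2 change was -0.19, and of the collagen list 0 of 33 tested members rose, 3 fell and the median log2 change was -0.15. Col4a1, a chain of the main network, was at 592, 581, 507 and 465 CPM in the young and 377, 371, 323 and 251 CPM in the aged hearts (log2 change -0.70 ± 0.12, adjusted p = 0.0016). Its partner Col4a2 was at 409, 414, 387 and 347 CPM in the young and 289.6, 263, 249 and 201 CPM in the aged hearts (log2 change -0.64 ± 0.12, adjusted p = 0.0026). Every aged heart was below every young one for both chains, with heart KO_Aged-125 the lowest. Col15a1 (-0.78 ± 0.17), a vessel-associated collagen, Pxdn (-0.42 ± 0.12), the peroxidase that crosslinks type IV collagen, and Serpinh1 (-0.54 ± 0.10), the collagen chaperone HSP47, fell too. The fibrillar chains did not pass: Col1a1 was at 112, 76.4, 87.8 and 87.2 CPM in the young and 88.3, 72.0, 93.2 and 51.2 CPM in the aged hearts (log2 change -0.25 ± 0.19, adjusted p = 0.48) and Col3a1 changed by -0.52 ± 0.39, adjusted p = 0.49. For collagen maturation 2 of 32 tested members rose, 1 fell and the median log2 change was 0.073 (1 to 3 risers with 1 heart left out), the risers being Fkbp10 (0.53 ± 0.12), a prolyl isomerase of collagen folding, and Pcolce2 (0.43 ± 0.11), an enhancer of procollagen cleavage. Pxdn lost its call without any 1 heart except KO_Young-53 and KO_Aged-115 (adjusted p up to 0.15) and Pcolce2 without heart KO_Young-31, KO_Young-38, KO_Aged-115 or KO_Aged-125 (adjusted p up to 0.076).

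Other matrix genes rose. Of the glycoprotein list 6 of 44 tested members rose, 0 fell and the median log2 change was 0.30. Aebp1, which encodes a collagen-binding protein, was at 21.1, 16.2, 19.9 and 16.8 CPM in the young and 43.0, 42.8, 52.6 and 43.7 CPM in the aged hearts (log2 change 1.30 ± 0.14, adjusted p = 1.0e-05), with heart KO_Aged-122 the highest. Efemp1, a fibulin, was at 14.7, 19.2, 15.7 and 11.1 CPM in the young and 25.2, 36.8, 30.2 and 35.6 CPM in the aged hearts (log2 change 1.07 ± 0.17, adjusted p = 0.00069). Both separated the ages. The thrombospondins Thbs2 (0.57 ± 0.11) and Thbs3 (0.66 ± 0.19) and the small proteoglycans Bgn (0.52 ± 0.15) and Podn (0.46 ± 0.10) rose by less. For proteases and their inhibitors 4 of 29 tested members rose, 3 fell and the median log2 change was 0.061 (0 to 4 risers and 0 to 2 fallers with 1 heart left out). Adamts4, an aggrecanase, fell (log2 change -1.61 ± 0.40, adjusted p = 0.015), with young heart KO_Young-27 standing above the rest, while the metalloproteinases Mmp12 (1.32 ± 0.39), of macrophages, and Mmp19 (0.93 ± 0.22) and the inhibitors Timp2 (0.34 ± 0.092) and Timp3 (0.34 ± 0.10) rose. Of the fibroblast list 1 of 22 tested members rose, 0 fell and the median log2 change was 0.25, the riser being the antioxidant Mgst1. Thbs3 lost its call without any 1 heart except KO_Young-27 and KO_Aged-114 (adjusted p up to 0.14), Bgn without any 1 heart except KO_Young-27 and KO_Aged-125 (adjusted p up to 0.10) and Adamts4 without heart KO_Young-27 or KO_Aged-115 (adjusted p up to 0.079). Mmp12 lost its call without any 1 heart except KO_Aged-114 (adjusted p up to 0.16), Mmp19 without heart KO_Young-53 or KO_Aged-122 (adjusted p up to 0.058) and Timp2 without any 1 heart except KO_Young-27, KO_Young-38 and KO_Aged-114 (adjusted p up to 0.096). Timp3 lost its call without any 1 heart except KO_Young-38 and KO_Aged-114 (adjusted p up to 0.12).

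Some endothelial genes passed, in both directions: 2 of 31 tested members rose, 5 fell and the median log2 change was -0.14 (0 to 2 risers and 1 to 6 fallers with 1 heart left out). The shares over all genes were 5.03% risen and 2.60% fallen. Aqp1, the water channel of cardiac capillaries, was at 479.9, 684, 608 and 655 CPM in the young and 265, 252, 249 and 284 CPM in the aged hearts (log2 change -1.21 ± 0.14, adjusted p = 2.8e-05), with no aged heart near the young range. Its wild-type change was -1.63. The angiopoietin receptor Tek (-0.37 ± 0.091), its partner Tie1 (-0.39 ± 0.10), the guidance receptor Robo4 (-0.49 ± 0.12) and the peptide hormone Apln (-0.68 ± 0.17) fell. The lipid uptake genes Cd36 (0.35 ± 0.092) and Fabp4 (0.56 ± 0.15), kept in the same list, rose. Klf2, a transcription factor that blood flow induces in endothelium, was at 96.8, 109.7, 92.9 and 82.9 CPM in the young and 51.9, 56.9, 42.8 and 72.4 CPM in the aged hearts (log2 change -0.77 ± 0.14, adjusted p = 0.0016). No gene of smooth muscle and pericytes passed edgeR's test (20 tested, 1 up and 2 down at an unadjusted p under 0.05, 0 up and 1 down by DESeq2, median -0.19), nor of mesothelium and valve (6 tested, 0 up and 0 down at an unadjusted p under 0.05, 0 up and 0 down by DESeq2, median 0.22). Of the Schwann and nerve list 0 of 9 tested members rose, 1 fell and the median log2 change was -0.54, the gene being Gfra3, a receptor for a nerve growth signal. Tek lost its call without heart KO_Young-31, KO_Aged-122 or KO_Aged-125 (adjusted p up to 0.066), Tie1 without heart KO_Young-31, KO_Aged-114, KO_Aged-122 or KO_Aged-125 (adjusted p up to 0.10) and Robo4 without heart KO_Aged-122 (adjusted p = 0.054). Apln lost its call without heart KO_Young-31, KO_Aged-122 or KO_Aged-125 (adjusted p up to 0.060), Cd36 without heart KO_Young-31, KO_Young-53, KO_Aged-122 or KO_Aged-125 (adjusted p up to 0.079) and Fabp4 without any 1 heart except KO_Young-31, KO_Aged-114 and KO_Aged-122 (adjusted p up to 0.093). Gfra3 lost its call without heart KO_Young-27 or KO_Aged-125 (adjusted p up to 0.060).

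Several genes of ketone and fatty acid use rose. Between meals and in fasting the heart burns fatty acids and ketone bodies, and PDK4 then holds back glucose oxidation. Of the fatty acid list 10 of 52 tested members rose, 0 fell and the median log2 change was 0.045 (3 to 9 risers with 1 heart left out). Bdh1 is counted below in the citric acid cycle and ketone list, and Pdk4 in the glycolysis list. Bdh1, which begins the use of the ketone body 3-hydroxybutyrate, was at 86.9, 75.1, 93.0 and 119.8 CPM in the young and 305, 239, 233 and 222 CPM in the aged hearts (log2 change 1.41 ± 0.14, adjusted p = 5.2e-06). Pdk4 was at 148, 141, 173 and 74.7 CPM in the young and 257, 339, 363 and 622 CPM in the aged hearts (log2 change 1.56 ± 0.38, adjusted p = 0.026). For both genes no aged heart reached down to the young range, and heart KO_Aged-125 was highest for Pdk4 but lowest of the aged for Bdh1. The mitochondrial carriers Ucp2 (0.73 ± 0.16) and Ucp3 (1.13 ± 0.27), the lipid droplet coat Plin2 (0.38 ± 0.075), the secreted lipase inhibitor Angptl4 (1.13 ± 0.30) and the peroxisomal Ehhadh (0.45 ± 0.12) rose as well. Food intake before collection is another item these sources do not give. Pdk4 lost its call without any 1 heart except KO_Young-38, KO_Aged-114 and KO_Aged-115 (adjusted p up to 0.072), Ucp3 without any 1 heart except KO_Young-31, KO_Aged-114 and KO_Aged-122 (adjusted p up to 0.063) and Angptl4 without any 1 heart except KO_Young-31, KO_Aged-114 and KO_Aged-122 (adjusted p up to 0.086). Ehhadh lost its call without heart KO_Young-27, KO_Young-53, KO_Aged-122 or KO_Aged-125 (adjusted p up to 0.10).

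A few glycolytic genes passed: 2 of 42 tested members rose, 3 fell and the median log2 change was -0.027 (1 to 3 risers with 1 heart left out). Of all genes tested, 5.03% rose and 2.60% fell. Pfkfb1, which makes the activator of phosphofructokinase, was at 8.83, 12.2, 13.2 and 10.6 CPM in the young and 21.2, 27.8, 36.3 and 36.1 CPM in the aged hearts (log2 change 1.44 ± 0.16, adjusted p = 2.1e-05). Ppp1r3c, which directs a phosphatase to glycogen, was at 192, 150.3, 190.5 and 219 CPM in the young and 140.1, 105, 101 and 97.8 CPM in the aged hearts (log2 change -0.76 ± 0.14, adjusted p = 0.0018). The muscle enzymes Eno3 (-0.47 ± 0.079) and Pgam2 (-0.42 ± 0.091) fell, though Eno3 counts are fractional in all 16 libraries. Respiratory chain genes were mostly short of the threshold. For complex I 0 of 36 tested members rose, 1 fell and the median log2 change was -0.11, the gene being Ndufv1, at 997, 1079, 1026 and 1138 CPM in the young and 822, 819, 841 and 896 CPM in the aged hearts (log2 change -0.33 ± 0.078, adjusted p = 0.012). For complexes II to V 0 of 39 tested members rose, 1 fell and the median log2 change was -0.10, and for the citric acid cycle and ketone list 1 of 29 tested members rose, 3 fell and the median log2 change was -0.16 (1 to 3 fallers with 1 heart left out), where the falls were those of Me3 (-0.35 ± 0.082), a mitochondrial malic enzyme, and of Bckdha (-0.44 ± 0.10) and Bckdhb (-0.31 ± 0.079), subunits that commit branched-chain amino acids to breakdown. No mitochondrial ribosomal gene passed (50 tested, 1 up and 4 down at an unadjusted p under 0.05, 1 up and 0 down by DESeq2, median -0.094), nor any cytosolic ribosomal gene (78 tested, 0 up and 2 down at an unadjusted p under 0.05, 0 up and 0 down by DESeq2, median -0.074). The medians of the glycolysis and cytosolic ribosome lists crossed 0 under at least 1 other setting, so no direction is read from them. Bckdha lost its call without heart KO_Young-53 or KO_Aged-122 (adjusted p up to 0.061) and Bckdhb without heart KO_Young-53, KO_Aged-115 or KO_Aged-122 (adjusted p up to 0.061).

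Genes of defence against oxidants and foreign compounds rose in part. NRF2 is the transcription factor that induces many of them. Of its list and other antioxidant genes 15 of 55 tested members rose, 2 fell and the median log2 change was 0.14 (0 to 1 fallers with 1 heart left out). Osgin1, an NRF2 target, was at 2.69, 2.39, 2.15 and 2.33 CPM in the young and 5.43, 6.46, 5.94 and 6.71 CPM in the aged hearts (log2 change 1.36 ± 0.19, adjusted p = 0.00016). The metallothionein Mt2, which binds zinc and copper, was at 6.64, 4.77, 4.54 and 4.003 CPM in the young and 17.8, 14.99, 22.01 and 23.7 CPM in the aged hearts (log2 change 1.98 ± 0.33, adjusted p = 0.0019). Gpx3, the secreted glutathione peroxidase, was at 173, 148, 182 and 174 CPM in the young and 318, 294, 276 and 249 CPM in the aged hearts (log2 change 0.75 ± 0.12, adjusted p = 0.00064). None of these overlapped between ages. Ephx1, an epoxide hydrolase (0.78 ± 0.08), Mgst1 (1.02 ± 0.12), Mt1 (0.71 ± 0.15), Aox1 (0.67 ± 0.13), an aldehyde oxidase, Hmox1 (1.02 ± 0.23), the haem oxygenase, and Gclm (0.52 ± 0.13), of glutathione synthesis, rose too, whereas Nqo1, a standard NRF2 target, did not pass in knockouts (log2 change 0.35 ± 0.13, adjusted p = 0.13). The falls were those of the mitochondrial enzymes Nnt (-0.55 ± 0.15), which makes NADPH, and Txnrd2 (-0.25 ± 0.077), a thioredoxin reductase. Of the xenobiotic list 3 of 24 tested members rose, 0 fell and the median log2 change was 0.18 (1 to 3 risers with 1 heart left out), with Fmo2 (1.03 ± 0.16), a lung-type flavin monooxygenase, the first by p. Gclm lost its call without heart KO_Young-53 or KO_Aged-122 (adjusted p up to 0.064), Nnt without heart KO_Young-27, KO_Young-53, KO_Aged-115 or KO_Aged-122 (adjusted p up to 0.12) and Txnrd2 without any 1 heart except KO_Young-27 (adjusted p up to 0.14).

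Some protein-folding genes of the cytosol fell, and none rose. Heat shock proteins refold damaged proteins, and HSF1 is their transcription factor. Of the heat shock list 0 of 39 tested members rose, 9 fell and the median log2 change was -0.21 (3 to 9 fallers with 1 heart left out), and its median stayed below 0 under every setting tried. Dnajb1, which brings substrates to HSP70, was at 36.2, 27.9, 32.2 and 36.1 CPM in the young and 18.4, 23.2, 20.3 and 25.7 CPM in the aged hearts (log2 change -0.60 ± 0.13, adjusted p = 0.0067). Fkbp4, a co-chaperone of HSP90, was at 485, 476, 483 and 556 CPM in the young and 364, 353, 368 and 383 CPM in the aged hearts (log2 change -0.45 ± 0.071, adjusted p = 0.00057). All aged hearts were lower than all young ones for both. Hspa8 (-0.36 ± 0.086), Hsp90ab1 (-0.32 ± 0.092), Hspb8 (-0.40 ± 0.081), Dnaja1 (-0.65 ± 0.15), Dnajb5 (-0.51 ± 0.12) and Hsf1 (-0.34 ± 0.10) fell as well. The inducible Hspa1a was at 9.33, 5.10, 9.33 and 10.2 CPM in the young and 2.83, 6.46, 4.95 and 3.56 CPM in the aged hearts and did not pass (log2 change -0.93 ± 0.47, adjusted p = 0.27). In the endoplasmic reticulum 0 of 31 tested members rose, 1 fell and the median log2 change was -0.045, and for the integrated stress response 0 of 28 tested members rose, 2 fell and the median log2 change was 0.057 (0 to 2 fallers with 1 heart left out), the falls being those of Atf3 (-0.94 ± 0.27) and the amino acid transporter Slc38a2 (-0.42 ± 0.11). No proteasome gene passed (35 tested, 0 up and 1 down at an unadjusted p under 0.05, 0 up and 0 down by DESeq2, median -0.059). Hspa8 lost its call without heart KO_Young-53 (adjusted p = 0.053), Hsp90ab1 without any 1 heart except KO_Young-31 (adjusted p up to 0.14) and Dnaja1 without heart KO_Young-53 (adjusted p = 0.051). Dnajb5 lost its call without heart KO_Young-53 (adjusted p = 0.055), Hsf1 without any 1 heart except KO_Aged-125 (adjusted p up to 0.17) and Atf3 without any 1 heart except KO_Young-38 and KO_Aged-125 (adjusted p up to 0.12). Slc38a2 lost its call without any 1 heart except KO_Young-31, KO_Aged-122 and KO_Aged-125 (adjusted p up to 0.071).

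Immediate early genes respond within minutes to stimuli, handling of tissue included. Of their list 2 of 31 tested members rose, 6 fell and the median log2 change was -0.23 (0 to 2 risers and 3 to 8 fallers with 1 heart left out). Nr4a3, an orphan nuclear receptor, was at 7.82, 12.3, 10.8 and 6.92 CPM in the young and 3.59, 2.98, 1.98 and 3.15 CPM in the aged hearts (log2 change -1.69 ± 0.28, adjusted p = 0.0011). Klf4 (-0.56 ± 0.13), Klf6 (-0.47 ± 0.12) and the phosphatase Dusp1 (-0.50 ± 0.12) fell with it, while Myc (0.69 ± 0.19) and Ier3 (0.59 ± 0.14) rose. Nr4a1 was at 48.8, 78.3, 45.6 and 41.4 CPM in the young and 15.4, 32.2, 24.4 and 103 CPM in the aged hearts, its highest value being in aged heart KO_Aged-125, and did not pass (log2 change -0.30 ± 0.51, adjusted p = 0.80). Fos was at 5.13, 11.9, 2.56 and 2.92 CPM in the young and 2.91, 9.77, 5.63 and 11.2 CPM in the aged hearts and did not pass (log2 change 0.38 ± 0.46, adjusted p = 0.69). Hearts were taken out directly after death, per the design text, which gives no interval to freezing. Klf6 lost its call without heart KO_Young-27, KO_Young-31, KO_Young-38 or KO_Aged-122 (adjusted p up to 0.079), Dusp1 without heart KO_Young-31 or KO_Aged-114 (adjusted p up to 0.053) and Myc without any 1 heart except KO_Aged-114 (adjusted p up to 0.098). Ier3 lost its call without heart KO_Young-31 (adjusted p = 0.053).

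A few clock genes changed. In the circadian clock the BMAL1 protein, encoded by Arntl, and its partners CLOCK and NPAS2 drive the Per and Cry genes, whose products repress them, and the REV-ERB and ROR receptors repress and activate Arntl through a ROR response element. Of the clock list 2 of 26 tested members rose, 2 fell and the median log2 change was 0.12 (0 to 2 risers and 1 to 3 fallers with 1 heart left out), where 5.03% of all genes rose and 2.60% fell. Arntl was at 7.31, 7.08, 4.79 and 3.002 CPM in the young and 1.83, 2.07, 1.75 and 0.889 CPM in the aged hearts (log2 change -1.75 ± 0.37, adjusted p = 0.0060), lower in each aged than in each young heart. Npas2 was at 4.54, 2.72, 2.72 and 2.50 CPM in the young and 1.22, 1.82, 1.14 and 1.62 CPM in the aged hearts (log2 change -1.10 ± 0.29, adjusted p = 0.021). Both genes were thus lower in all 4 aged hearts, while Clock did not pass (log2 change -0.20 ± 0.079, adjusted p = 0.15). Per2 was at 35.6, 34.5, 49.0 and 46.9 CPM in the young and 59.2, 60.1, 51.0 and 70.3 CPM in the aged hearts (log2 change 0.54 ± 0.16, adjusted p = 0.043). Cry1 was at 12.4, 12.9, 13.2 and 16.2 CPM in the young and 16.6, 16.6, 18.4 and 22.6 CPM in the aged hearts (log2 change 0.44 ± 0.12, adjusted p = 0.032). Both were higher in all 4 aged hearts, though heart KO_Young-53 came close to hearts KO_Aged-114 and KO_Aged-115 for Cry1. In wild-type hearts the changes were 0.42, 0.08, -0.33 and -0.11, none past the threshold, but the differences between genotypes did not pass edgeR's test either (adjusted p = 0.067 for Arntl and adjusted p = 0.092 for Per2). By DESeq2 the differences of Arntl and Per2 did pass. That of Arntl also passed without heart KO_Young-53 or aged wild-type heart 12, and that of Per2 without aged wild-type heart 5. The REV-ERB gene Nr1d1 was at 146, 129.9, 114.7 and 132 CPM in the young and 99.4, 115.3, 95.2 and 78.8 CPM in the aged hearts (log2 change -0.43 ± 0.26, adjusted p = 0.38) and the clock output gene Dbp changed by 0.16 ± 0.17, adjusted p = 0.66. Clock genes follow the time of day, and the hour of collection for each group was not tested. Npas2 lost its call without heart KO_Young-27, KO_Aged-114 or KO_Aged-122 (adjusted p up to 0.093), Per2 without any 1 heart except KO_Young-38 and KO_Aged-122 (adjusted p up to 0.13) and Cry1 without any 1 heart except KO_Young-53, KO_Aged-114 and KO_Aged-115 (adjusted p up to 0.13).

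The second of the listed Arntl promoters is shown because it holds the core of the ROR response element, TAGGTCA (capitals), a heptamer searched on both strands and found in 1.79% of 13628 promoters. It lies at chr7:113207486-113207560 on the plus strand of GRCm38.p6, in RefSeq sequence, with the match starting 31 bases after the start site. The same letters are not in the other listed Arntl promoter window or in that of Npas2.
Arntl: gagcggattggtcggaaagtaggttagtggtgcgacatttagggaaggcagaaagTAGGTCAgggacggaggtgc

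**Figure D4:**
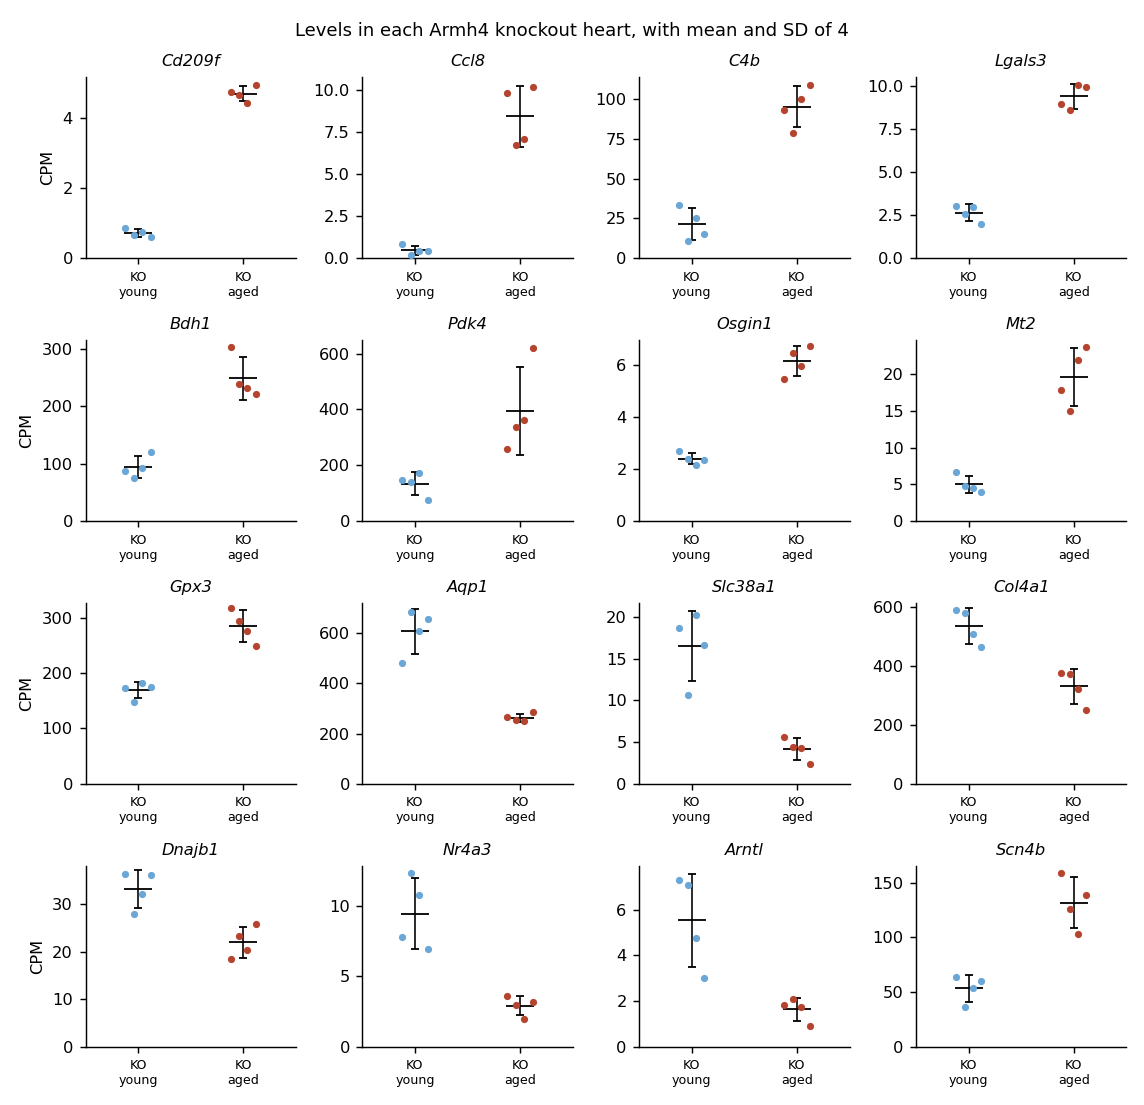
CPM of 16 genes in each of the 8 knockout hearts, young (left) and aged (right) in each panel; each point is 1 heart, the short horizontal line is the mean of 4 and the whiskers are 1 SD. Lectin, chemokine, complement, ketone, antioxidant and Scn4b panels step up with age and the Aqp1, Slc38a1, Col4a1, Dnajb1, Nr4a3 and Arntl panels step down, with no overlap between the ages.

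Few contractile genes of heart muscle passed edgeR's test. Of the sarcomere list 1 of 34 tested members rose, 1 fell and the median log2 change was -0.18, with 0 to 2 fallers when 1 heart was left out. At an unadjusted p under 0.05, 2 of the list were higher and 12 lower, DESeq2 called 1 rise and 6 falls, and 3 of the 34 had a positive change. The summed level of the list was 122930.0 to 131680.0 CPM in the young and 111070.0 to 116010.0 CPM in the aged hearts, without overlap. Myot, a Z-disc protein, rose (log2 change 0.90 ± 0.10, adjusted p = 2.1e-05) and Myl2, the ventricular regulatory light chain, fell (log2 change -0.38 ± 0.11, adjusted p = 0.032). Myh6, the adult myosin heavy chain, was at 37077, 35654, 42205 and 40449 CPM in the young and 28083, 30396, 34660.0 and 33371 CPM in the aged hearts (log2 change -0.30 ± 0.11, adjusted p = 0.11), every aged heart lower than every young one without passing. The fetal programme, genes that failing hearts take up again, did not pass in edgeR's test (15 tested, 1 up and 3 down at an unadjusted p under 0.05, 0 up and 1 down by DESeq2, median -0.19). Nppa, the atrial natriuretic peptide gene, was at 140.5, 297, 432 and 282 CPM in the young and 423, 128, 56.2 and 72.4 CPM in the aged hearts. Nppb, the gene of its ventricular relative, was at 167, 206, 141 and 276 CPM in the young and 184, 86.8, 38.8 and 91.3 CPM in the aged hearts. Myh7, the slow myosin, was at 937, 352, 597 and 256 CPM in the young and 592, 282, 146 and 194 CPM in the aged hearts. All 3 overlapped between the ages, and heart KO_Aged-114 was the highest of the aged for each. Acta1, skeletal actin, was at 595, 238, 274 and 351 CPM in the young and 187, 82.6, 161 and 95.01 CPM in the aged hearts (log2 change -1.47 ± 0.42, adjusted p = 0.054). Atrial markers varied from heart to heart, with a summed level of 1240.5 to 1879.9 CPM in the young and 1119.9 to 2041 CPM in the aged hearts, hearts KO_Young-38 and KO_Aged-114 being the highest of their ages, and 1 of 14 tested members rose, 0 fell and the median log2 change was 0.011. How much atrium each sample held was not tested as a source of these differences. Of the skeletal muscle list 2 of 9 tested members rose, 0 fell and the median log2 change was 0.28 (1 to 2 risers with 1 heart left out), these being Ryr1 (1.91 ± 0.44), a calcium release channel, and Myl1 (0.88 ± 0.22), with Ryr1 not passing on log2(FPKM + 1) (adjusted p = 0.16). At an unadjusted p under 0.05, 2 of that list were higher and 4 lower, and DESeq2 called 2 rises and 2 falls. The list's summed level was 2433.3 to 2935.0 CPM in the young and 2038.7 to 2342.0 CPM in the aged hearts, lower without overlap. Myl2 lost its call without heart KO_Young-31, KO_Young-53, KO_Aged-114 or KO_Aged-122 (adjusted p up to 0.12) and Myl1 without heart KO_Young-27, KO_Young-53, KO_Aged-115 or KO_Aged-122 (adjusted p up to 0.069).

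Channel genes changed in a few members. Of the ion channel and conduction list 1 of 37 tested members rose, 4 fell and the median log2 change was -0.048. Scn4b, a sodium channel beta subunit, was at 63.6, 35.9, 53.4 and 60.4 CPM in the young and 159, 126, 103 and 139 CPM in the aged hearts (log2 change 1.30 ± 0.23, adjusted p = 0.0026). Kcnd2, a pore subunit of the transient outward potassium current, was at 45.4, 42.6, 47.4 and 50.4 CPM in the young and 27.8, 31.9, 40.7 and 27.8 CPM in the aged hearts (log2 change -0.53 ± 0.10, adjusted p = 0.0030), and its counts are fractional in 12 libraries. Its accessory subunit Dpp6 rose, as given above. Gja1, connexin 43, which couples ventricular cells, was at 601, 627, 556 and 550.2 CPM in the young and 485, 446, 414 and 383 CPM in the aged hearts (log2 change -0.43 ± 0.10, adjusted p = 0.0087). All 3 separated the ages. Kcna5 (-0.77 ± 0.17) and Kcnj12 (-0.55 ± 0.13), potassium channels of repolarisation and resting potential, fell. For calcium handling 0 of 30 tested members rose, 2 fell and the median log2 change was 0.0038 (1 to 2 fallers with 1 heart left out), the genes being Sorcs2 (-0.78 ± 0.17), a sorting receptor, and Camk2d (-0.34 ± 0.10), the main cardiac calmodulin kinase. The medians of both lists crossed 0 under another setting. Kcnj12 lost its call without heart KO_Young-53 or KO_Aged-115 (adjusted p up to 0.056) and Camk2d without any 1 heart except KO_Young-31 and KO_Aged-114 (adjusted p up to 0.13).

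Few genes of the signalling lists passed, where 5.03% of all genes rose and 2.60% fell. Of the adrenergic, renin and natriuretic list 2 of 30 tested members rose, 1 fell and the median log2 change was -0.034 (1 to 2 risers with 1 heart left out). Grk5, a kinase that silences beta-adrenergic receptors, was at 46.8, 43.1, 47.5 and 45.9 CPM in the young and 72.6, 78.8, 81.9 and 62.7 CPM in the aged hearts (log2 change 0.69 ± 0.085, adjusted p = 4.0e-05). Pde2a, which breaks down cyclic nucleotides, was at 95.5, 123, 108 and 109 CPM in the young and 67.6, 78.7, 75.8 and 72.6 CPM in the aged hearts (log2 change -0.56 ± 0.10, adjusted p = 0.0014). The 2 genes moved in opposite directions, each without overlap, and Corin, the protease that activates atrial natriuretic peptide, rose (0.39 ± 0.11). For TGF-beta and BMP 3 of 34 tested members rose, 0 fell and the median log2 change was 0.039, the risers being Smad6, an inhibitor of BMP signalling (log2 change 0.79 ± 0.15, adjusted p = 0.0021), Inhbb, an activin subunit (log2 change 0.98 ± 0.22, adjusted p = 0.0073), and the receptor Tgfbr2 (log2 change 0.29 ± 0.082, adjusted p = 0.030). For interleukin 6 and STAT3 2 of 24 tested members rose, 0 fell and the median log2 change was 0.23 (1 to 2 risers with 1 heart left out). Of these 24 members 19 had a positive change, and the list's median ran from 0.18 to 0.30 over all settings. Socs2, a suppressor of cytokine signalling, was at 38.5, 49.2, 60.3 and 35.9 CPM in the young and 73.3, 85.7, 77.9 and 78.0 CPM in the aged hearts (log2 change 0.77 ± 0.12, adjusted p = 0.00050), and the phosphatase Ptpn6 of blood cells rose (0.58 ± 0.17). The pathway's receptor subunit Il6st (log2 change -0.054 ± 0.092, adjusted p = 0.79) and Stat3 itself (log2 change 0.11 ± 0.12, adjusted p = 0.64) did not pass. No mTOR pathway gene passed edgeR's test (43 tested, 3 up and 7 down at an unadjusted p under 0.05, 0 up and 3 down by DESeq2, median -0.039), the kinase gene Mtor changing by 0.088 ± 0.10, adjusted p = 0.66 and its partner Rictor by 0.18 ± 0.09, adjusted p = 0.25. For autophagy 1 of 37 tested members rose, 0 fell and the median log2 change was -0.024, the gene being Bnip3, a mitophagy receptor (log2 change 0.79 ± 0.12, adjusted p = 0.00047). For cholesterol synthesis 2 of 29 tested members rose, 0 fell and the median log2 change was 0.00019 (0 to 2 risers with 1 heart left out), namely Hsd17b7 (0.60 ± 0.15) and Lss (0.47 ± 0.14), and for adipocyte markers 1 of 7 tested members rose, 0 fell and the median log2 change was 0.15, the gene being Fabp4, which endothelium shares. Corin lost its call without any 1 heart except KO_Young-38 and KO_Aged-114 (adjusted p up to 0.11), Tgfbr2 without any 1 heart except KO_Young-27 and KO_Aged-114 (adjusted p up to 0.096) and Ptpn6 without any 1 heart except KO_Young-31 and KO_Aged-115 (adjusted p up to 0.12). Hsd17b7 lost its call without heart KO_Young-27 or KO_Young-53 (adjusted p up to 0.065) and Lss without any 1 heart (adjusted p up to 0.12).

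Set beside wild-type ageing, which shares no heart with it, fewer genes passed in knockout ageing and most had the same sign. In wild-type hearts 2906 genes changed, 1578 up and 1328 down. The 678 genes that changed in the same direction in both made up 66.5% of those changed in knockouts and 23.3% of those changed in wild type. Of the 1020 genes changed in knockouts, 970 had the same sign in wild type, and across all tested genes the log2 changes correlated with Pearson's r = 0.67, a description over genes that are not independent. Of the 672 that rose in knockouts, 307 rose less there than in wild type. The 672 were picked by their rise in these same knockout hearts, so this count follows in part from the choice. The difference between the genotypes' ageing changes was tested as an interaction: 62 genes passed, 45 with a lower and 17 with a higher change in knockouts, and 1637 had an unadjusted p under 0.05. This count rests on single hearts, from 24 without heart KO_Young-31 to 167 without wild-type heart 12. DESeq2 called 217.

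**Figure D5:**
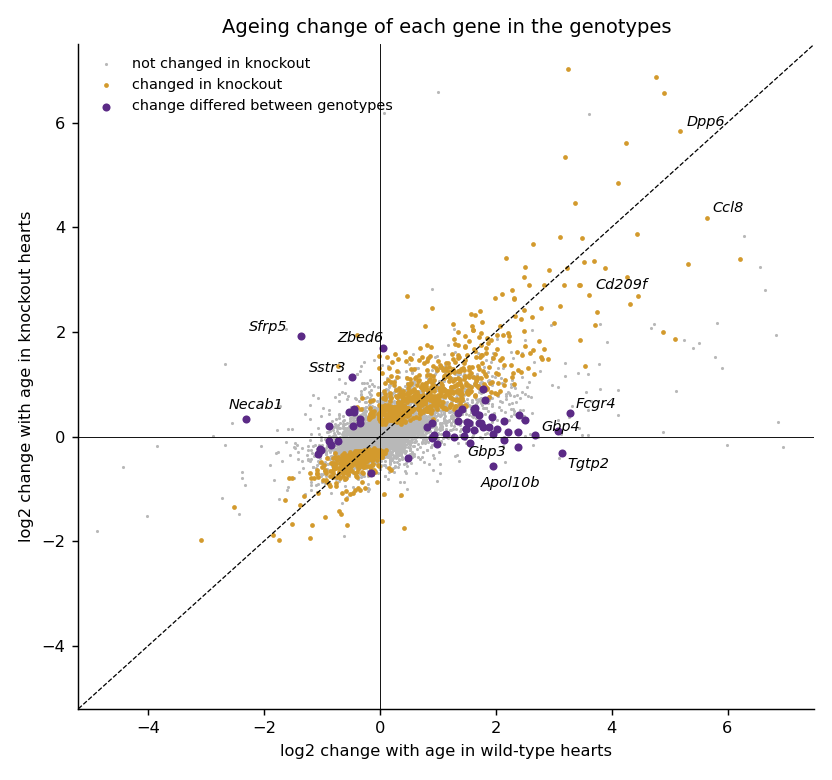
Log2 change from 8 weeks to 25 months of each tested gene in wild-type hearts (horizontal axis) and in knockout hearts (vertical axis). Purple points are the 62 genes whose changes differed between genotypes at an adjusted p of 0.05, and orange points are other genes changed in knockouts. Of the purple points, the 45 below the diagonal include the guanylate-binding and class I genes, and the 17 above it include Sfrp5 and Necab1.

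Of the 45 genes with the lower change in knockouts, 44 rose in wild-type hearts and 5 changed in knockouts. The 45 were picked by that difference in these same hearts, so both counts follow in part from the choice. The leucocyte genes Ptprc (0.70 against 1.82 in wild type), which encodes CD45, Itgb2 (0.91 against 1.78), an integrin chain, and Pld4 (0.53 against 1.43) rose in both genotypes, more in wild type. Fcgr4, an antibody receptor of macrophages, changed by 0.45 ± 0.38 in knockouts and 3.28 in wild type, and Apol10b by -0.57 ± 0.24 and 1.95. Fam220a fell in knockouts (log2 change -0.70 ± 0.081, adjusted p = 2.1e-05) and changed by -0.16 in wild type. Pfkfb3, an inducible regulator of glycolysis, differed as well (0.30 against 1.35), as did Gstm2 (0.19 against 0.82) and the death ligand gene Tnfsf10 (0.15 against 1.49). Differences of rise in leucocyte genes were not tested against the number of leucocytes in each heart. Ptprc lost its call without heart KO_Young-53 (adjusted p = 0.054) and Pld4 without heart KO_Young-27, KO_Young-38, KO_Aged-114 or KO_Aged-125 (adjusted p up to 0.063). Ptprc lost the difference between genotypes without 10 of the 16 hearts taken singly (adjusted p up to 0.12), Itgb2 without 12 of the 16 hearts taken singly (adjusted p up to 0.12) and Pld4 without 13 of the 16 hearts taken singly (adjusted p up to 0.11). Fcgr4 lost the difference between genotypes without 7 of the 16 hearts taken singly (adjusted p up to 0.064), Fam220a without 11 of the 16 hearts taken singly (adjusted p up to 0.094) and Pfkfb3 without 12 of the 16 hearts taken singly (adjusted p up to 0.12). Gstm2 lost the difference between genotypes without heart KO_Aged-115, WT 34 or WT 42 (adjusted p up to 0.056).

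Of the 17 genes with the higher change in knockouts, 16 fell in wild-type hearts, and 5 of those rose in knockouts: Sfrp5, Podn, Timp3, Fkbp10 and Sstr3. The 17 were picked by the same difference, so these counts too follow in part from the choice. Sfrp5, a secreted inhibitor of WNT signals, was at 0.672, 0.329, 0.660 and 0.751 CPM in young and 0.917, 3.23, 2.97 and 2.10 CPM in aged knockout hearts (log2 change 1.91 ± 0.40, adjusted p = 0.0051). It was at 1.21, 1.61, 1.55 and 1.17 CPM in young and 0.243, 1.03, 0.535 and 0.320 CPM in aged wild-type hearts (log2 change -1.36 ± 0.43, adjusted p = 0.029), and the difference was 3.27 ± 0.59, adjusted p = 0.014. Sstr3, a somatostatin receptor, was at 3.03, 3.54, 3.47 and 4.84 CPM in young and 7.57, 8.12, 10.3 and 6.71 CPM in aged knockout hearts (log2 change 1.14 ± 0.17, adjusted p = 0.00034) and changed by -0.47 in wild type (difference 1.61 ± 0.24, adjusted p = 0.0027). Podn, a matrix proteoglycan, changed by 0.46 ± 0.10 and -0.44, and Fkbp10 by 0.53 ± 0.12 and -0.44. Zbed6, a repressor of growth factor transcription, was at 2.86, 2.72, 2.15 and 1.92 CPM in young and 7.03, 8.37, 8.53 and 7.44 CPM in aged knockout hearts (log2 change 1.70 ± 0.22, adjusted p = 5.8e-05). Its wild-type change was 0.062 ± 0.20, adjusted p = 0.86 and the difference was 1.64 ± 0.30, adjusted p = 0.014. Zbed6 lies within the gene Zc3h11a, so reads of the pair may not be told apart, and Zc3h11a itself changed by -0.015 ± 0.085, adjusted p = 0.95 in knockouts (difference between genotypes 0.15 ± 0.12, adjusted p = 0.67). The matrix genes Adamts9 (-0.33 against -1.07) and Col6a2 (-0.25 against -1.01) had a less negative change in knockouts than in wild type, and Fbln2 changed by 0.26 in knockouts and -0.34 in wild type. Necab1, whose counts are fractional in all libraries, changed by 0.33 against -2.31, Gpd1, a dehydrogenase linking glycolysis to lipid, by 0.21 against -0.87, and Gpr22, a receptor of heart and brain, by 0.47 against -0.52. Adamts9 lost its call without any 1 heart except KO_Young-38 (adjusted p up to 0.14). Timp3 lost the difference between genotypes without 8 of the 16 hearts taken singly (adjusted p up to 0.090), Col6a2 without 9 of the 16 hearts taken singly (adjusted p up to 0.090) and Fbln2 without 6 of the 16 hearts taken singly (adjusted p up to 0.080). Gpr22 lost the difference between genotypes without 14 of the 16 hearts taken singly (adjusted p up to 0.10).

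Some calls named above were also lost under another setting with all hearts kept. In a fit of the knockout libraries alone these were the knockout changes of Cyp4f15, Lyve1, S100a9, Pxdn, Ucp3, Angptl4, Nnt, Atf3 and Lss. On log2(FPKM + 1), log2(FPKM + 0.1) or both they were those of Armh4, Ifit2, Oas2, Pxdn, Adamts4, Tek, Tie1, Robo4, Apln, Bckdhb, Nnt, Txnrd2, Hsp90ab1, Hsf1, Atf3, Slc38a2, Klf6, Myl2, Ryr1, Camk2d and Adamts9, and among these Pxdn, Tek, Tie1, Bckdhb, Txnrd2, Hsp90ab1, Hsf1, Klf6, Myl2, Camk2d and Adamts9 were lost with scaling by library size alone too. With another filter on low counts Ctss, Irf7, Txnrd2, Hsf1, Atf3, Per2 and Lss did not pass, and with DESeq2 Lss did not. The difference between genotypes was lost on at least 1 FPKM scale for Ifit2, Irf9, Ifih1, H2-D1, H2-T23, H2-DMb1, Ptprc, Itgb2, Pfkfb3, Adamts9, Col6a2, Fbln2 and Gpr22, and with another filter for B2m, Tgtp1, Irf9, H2-D1, H2-Q4, H2-Q6, H2-Q7, H2-T23, Itgb2, Pfkfb3 and Gpr22. Scaling by library size alone ended it for Ptprc and Itgb2.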

How the data were processed

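Total RNA of 16 mouse hearts was sequenced, 4 in each combination of genotype and age. For each heart the authors deposited an expected count (estimated count) per gene, in part fractional, and FPKM values, which are scaled to gene length and depth. The submitters' processing notes list HISAT, Bowtie2 and GRCm39 with no role or version, and neither the counting program nor the strand setting is stated in the sources used here. Counts were rounded and tested with edgeR 4.0.16 (R 4.3.3; TMM scaling, filterByExpr, robust quasi-likelihood fit over all 4 groups, 12 residual degrees of freedom), giving knockout ageing, wild-type ageing and their difference, each adjusted over all 13373 genes. DESeq2 1.42.0, other scalings and filters, limma 3.58.1 on log2(FPKM + 1) and log2(FPKM + 0.1), and omission of each heart were alternatives. Replicates differed by more than sampling noise (chi-square per degree of freedom 6.04 to 12.6 between knockout hearts of one age). Genes were named by rule: the 15 largest rises and falls and the 10 of smallest p with no overlap, up to 6 members by p of each of 54 lists, defining markers at 0, and the 8 largest differences between genotypes on each side; other names were chosen after their values were seen, and a few genes are not reported here. Members and lists were chosen with earlier results of these data known. No heart was left out. The p-values and standard errors rest on the spread between animals within groups, estimated jointly over the 4 groups and in part shared between genes. Wild-type spread therefore enters the knockout tests, and a fit of the knockout libraries alone called 1340 genes. The fit was tested on simulated data. Promoters are RefSeq sequences, 250 bases before to 50 after each start.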

Additional observations from a re-analysis of the deposited data

Results flagged for a closer look

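In 32 of 472 sets of 4 hearts of one age in the genes named above, 1 knockout heart stood apart from the other 3 by Dixon's test at the 95% level. Chance marks about 1 in 20 sets where values are continuous and normally distributed. KO_Young-27 stood apart for Cxcl16 (8.24 CPM), Bgn (281 CPM), Adamts4 (3.53 CPM), Gfra3 (3.28 CPM), Hmox1 (15.4 CPM) and Npas2 (4.54 CPM). In KO_Young-31 the genes were Cd209b (0.0823 CPM), Cd209g (0.329 CPM), Nqo1 (63.9 CPM), Hspa1a (5.10 CPM), Atf3 (18.4 CPM) and Adamts9 (29.6 CPM). KO_Young-38 did so for Oas3 (0.495 CPM). KO_Young-53 was marked for Dpp6 (0.0834 CPM), Cyp2b10 (0.0834 CPM), Mmp19 (2.001 CPM), Me3 (134 CPM), Bckdha (468 CPM) and Fkbp4 (556 CPM). Among aged hearts, KO_Aged-114 stood apart for Cxcl16 (14.7 CPM) and Ppp1r3c (140.1 CPM). KO_Aged-115 did so for Casp4 (6.96 CPM), Gclm (19.7 CPM) and Gstm2 (96.7 CPM). KO_Aged-122 was the outlying heart for B2m (218 CPM), Aebp1 (52.6 CPM), Mmp12 (3.05 CPM), Plin2 (67.8 CPM) and Inhbb (6.78 CPM). KO_Aged-125 was marked for Prom2 (4.45 CPM), Podn (26.0 CPM) and Col6a2 (65.1 CPM). The values under 1 CPM rest on few counts, so the rate of 1 in 20 need not hold for those sets. For Cd209b and Dpp6 the 4 young hearts held 1 count together, so 1 heart stood apart by construction.

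The ageing change of 42 named genes differed between knockout and wild-type hearts by the interaction test, given here as the knockout minus the wild-type log2 change. Interferon genes with a lower change in knockouts were Gbp3 (-2.13), Gbp2 (-1.70), Gbp4 (-2.66), Gbp5 (-1.85), Gbp7 (-1.88), Gbp9 (-1.28), Tgtp1 (-2.98), Tgtp2 (-3.44), Ifi47 (-1.99), Rsad2 (-1.14), Ifit2 (-0.90), Irf1 (-1.09), Irf9 (-0.93) and Ifih1 (-0.91). Antigen presentation genes were B2m (-1.60), H2-D1 (-1.28), H2-Q4 (-1.49), H2-Q6 (-2.22), H2-Q7 (-2.59), H2-T23 (-1.22) and H2-DMb1 (-1.48). The other genes lower in knockouts were Ptprc (-1.12), Itgb2 (-0.87), Pld4 (-0.89), Fcgr4 (-2.82), Apol10b (-2.51), Fam220a (-0.55), Pfkfb3 (-1.04), Gstm2 (-0.62) and Tnfsf10 (-1.34). A higher change in knockouts was found for Zbed6 (1.64), Sstr3 (1.61), Sfrp5 (3.27), Podn (0.90), Fkbp10 (0.96), Timp3 (0.69), Necab1 (2.64), Adamts9 (0.73), Col6a2 (0.76), Fbln2 (0.61), Gpd1 (1.08) and Gpr22 (0.99).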

How the results depend on the processing

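In knockout hearts the number of genes changed with age stayed within 1.5 times of 1020 under every setting except 2 omissions: with 1 heart left out it ran from 634 (without KO_Young-53) to 863 (without KO_Aged-114), and it was 674 without KO_Aged-115. The share of changed genes that were higher in aged hearts moved from 65.9% to 83.2% with scaling by library size alone, and to 82.2% and 82.7% on log2(FPKM + 1) and log2(FPKM + 0.1). Of the 1020 genes, 999 were called by DESeq2 and 951 in a fit of the knockout libraries alone. The number of genes changed in wild-type hearts was 2129 in a fit of the wild-type libraries alone, and 2007 to 2889 with 1 heart left out. The number of genes whose ageing change differed between genotypes was 217 by DESeq2, and with 1 heart left out it ran from 24 to 167. It was 30, 24, 39, 26 and 29 without KO_Young-27, KO_Young-31, KO_Young-53, KO_Aged-115 and KO_Aged-122, 30, 29, 33 and 31 without young wild-type hearts 29, 34, 39 and 42, and 39 and 167 without aged wild-type hearts 4 and 12. Leaving out 1 heart leaves 3 in its group, and beyond that the cause was not tested. Of the 185 changes in knockout hearts that were followed over these settings, 73 lost their call under at least 1 setting and 0 reversed. Beyond the lists marked above, the median knockout change of further lists crossed 0 under at least 1 setting, so no direction is read from it. These were the lists of antigen presentation, matrix proteases, atrial markers, the endoplasmic reticulum, autophagy, the proteasome and cholesterol synthesis. The mTOR, TGF-beta and BMP, and adrenergic, renin and natriuretic lists did so too. No paired analysis was possible because no animal number is shared between groups. Depth limits genes under about 1 CPM, whose 4 hearts together hold few counts.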

Other observations

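Genes that changed with age in knockout hearts were in places neighbours on the chromosome. Ordered by the RefSeq gene table, 13305 tested genes had a position, and 16 runs of at least 3 adjacent tested genes changed in the same direction, 15 upward and 1 downward. These runs were picked after their values were seen, and clustered genes of one family can share reads. The chemokine genes Ccl11, Ccl12 and Ccl8 with the adjoining Tmem132e rose by log2 changes of 1.24 to 4.18, and Ccl9, Ccl6 and Wfdc17 by 1.31 to 1.58. The lectin genes Clec4a2, Clec4n and Clec4d with Cd163 rose by 0.87 to 2.89, and the receptor genes Cd300a, Cd300lb and Cd300ld by 0.84 to 1.49. The C1q genes C1qb, C1qc and C1qa rose by 0.71 to 0.86, and the Toll-like receptor genes Tlr8 and Tlr7 with Prps2 by 0.62 to 1.09. The run that fell held the amino acid transporters Slc38a1, Slc38a2 and Slc38a4, with changes of -1.98 to -0.42.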
